A study of Mus musculus with 6 samples.

Results

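The 594 features described here are the nuclear genes of the deposited count tables whose exons overlap no exon of a gene on the other strand and that collected 60 or more reads over the 6 libraries. They were drawn from 46078 counted features, of which 45143 matched the GENCODE M21 annotation of the mm10 mouse genome and 45106 of those are nuclear. Exons free of any opposite-strand exon were found in 36985 nuclear features. Of these, 27866 had no read in any library, 8525 had 1 to 59 reads and 594 reached the threshold. The members were thus chosen by their summed reads, and their abundance is given as a description. Neither group's label entered the choice.

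Poly-A RNA was sequenced from cardiomyocytes, the contractile cells of the heart, isolated by perfusion of mouse hearts. There were 3 libraries with a knockdown of Acly (Acly_KD) and 3 of the wildtype (control). Acly encodes ATP citrate lyase, which makes cytosolic acetyl-CoA from citrate. The knockdown used MyH6-Cas9 mice, whose label names the promoter of the alpha myosin heavy chain gene, active in heart muscle cells. The comparison asks which transcripts of heart muscle cells change with less Acly. The sources used here do not give the guide, its delivery, the age of the animals or whether the controls carry Cas9. Nothing in the labels says that the libraries of a group are from different animals, and p-values therefore measure only the spread between libraries, which may be technical.

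Genes on opposite strands often lie close together. A pair that starts back to back can share a promoter region, a pair that ends face to face can have final exons a few bases apart, and a gene can sit whole inside an intron of another. A library kit that marks strand, as was used here, lets reads of such neighbours be told apart when they are counted by strand. In these tables the 8121 nuclear features with opposite-strand exons held most nuclear reads, and the members are the abundant features among the remainder. The sources used here do not give the strand setting of the counting. A level is therefore the number of reads counted at a locus and not a measure of the named gene's own RNA. Whether the reads came from RNA of the annotated strand or of the other one was not tested. Many of the abundant members encode proteins of the sarcomere, the repeating unit of actin and myosin filaments that shortens when a heart muscle cell contracts, or of mitochondrial energy supply.

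Reads counted in features numbered 271463 to 814765 per library, 2.81% to 3.07% of the uniquely aligned reads. Between 96.7% and 96.9% of the uniquely aligned reads fell in no feature. All 36985 features without opposite-strand exons, 82.0% of the nuclear features, together held 8.08% of the nuclear reads. The members held 133301 reads, or 5.26%. Acly had no read in any Acly_KD library (0, 0 and 0 reads), against 1, 5 and 6 reads for control 1 to 3. With a floor of 3 counts over the Acly_KD group and the 12 control reads taken as exact, its level was at least 4.10-fold lower than in control. The exact permutation test of its normalised values, two-sided, gave p = 0.1, the lowest value possible with 3 libraries per group. The floor covers counting error only, and with 12 reads Acly is not among the 594 features. Of 8 cardiomyocyte markers all 8 were counted, with summed levels of 4128, 8452 and 14839 CPM (counts scaled to library size) for Acly_KD 1 to 3, against 14000, 12786 and 10795 CPM for control 1 to 3. They were far above the markers of other cells in every library. Summed markers of other cells ranged in Acly_KD and control from 38.4 to 65.9 and 73.3 to 80.1 CPM for atrial muscle (6 markers, Sln at 0), 50.7 to 261 and 109 to 171 CPM for endothelium (10 markers), and 16.9 to 26.9 and 12.9 to 27.2 CPM for fibroblasts (8 markers). They ranged from 59.9 to 160.0 and 112.9 to 149.5 CPM for pericytes and smooth muscle (7 markers), and from 97.7 to 106 and 109 to 135 CPM for macrophages and blood (10 markers, Ptprc at 0). Tsix, annotated opposite to Xist, had 129 and 124 reads in control replicates 2 and 3 and 0 in the other libraries. Whether the libraries or the groups differ in the sex of the animals was not tested.

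The libraries of the Acly_KD group stood apart from one another in the members. Members held 3.27%, 4.56% and 6.59% of nuclear reads for Acly_KD 1 to 3, against 5.88%, 5.85% and 5.12% for control 1 to 3. Acly_KD replicate 3 thus held more than every control, and Acly_KD replicates 1 and 2 held less. The means were 4.81% ± 1.67 and 5.62% ± 0.430 (SD, n = 3 each), a difference of -0.811 percentage points that was smaller than the spread within Acly_KD (p = 0.6, two-sided exact permutation test). The source of this spread, in the cells or in the making and counting of the libraries, was not tested. Fewer cells of a type and less RNA per cell cannot be told apart in such bulk libraries.

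In 48 of the 594 members (8.08%) the nearest opposite-strand gene starts within 150 bases, back to back with the member, and sequences between such starts are shown because they are what each pair shares. Among protein-coding members the share was 8.03%, against 5.84% of all protein-coding features without opposite-strand exons and 8.74% of those with 1 to 59 reads. The following are the RefSeq promoter windows (GRCm38.p6, from 250 bases before to 50 bases after the annotated start) of the 4 such members with the most reads among those whose window spans both starts. Each is written 5′ to 3′ on the member's strand, with the bases that lie between the GENCODE M21 starts of the pair in capitals. The 68 capital bases of Slc38a6 separate it from Trmt5, which encodes a tRNA methyltransferase, and the window lies at chr12:73286598-73286897 on the plus strand. The 133 capital bases of 4930429F24Rik separate it from Tmem30a, a subunit of lipid flippases, at chr9:79793391-79793690 on the plus strand. The 109 capital bases of Vps26b, a subunit of the retromer complex, separate it from Ncapd3, a subunit of condensin, at chr9:27030045-27030344 on the minus strand. The 57 capital bases of Wdr76 separate it from Mfap1a, a splicing factor gene, at chr2:121506473-121506772 on the plus strand.
Slc38a6: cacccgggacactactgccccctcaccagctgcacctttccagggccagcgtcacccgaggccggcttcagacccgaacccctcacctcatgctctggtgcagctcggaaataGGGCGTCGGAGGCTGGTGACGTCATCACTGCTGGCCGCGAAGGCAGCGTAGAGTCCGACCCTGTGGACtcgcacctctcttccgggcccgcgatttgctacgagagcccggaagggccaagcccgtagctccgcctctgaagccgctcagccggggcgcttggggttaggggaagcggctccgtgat
4930429F24Rik: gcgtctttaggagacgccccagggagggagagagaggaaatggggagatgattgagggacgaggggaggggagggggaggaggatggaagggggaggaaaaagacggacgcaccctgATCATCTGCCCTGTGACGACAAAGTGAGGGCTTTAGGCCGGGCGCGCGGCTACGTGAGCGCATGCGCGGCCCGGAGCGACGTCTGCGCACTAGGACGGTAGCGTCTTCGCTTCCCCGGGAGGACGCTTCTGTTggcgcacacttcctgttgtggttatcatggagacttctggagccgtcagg
Vps26b: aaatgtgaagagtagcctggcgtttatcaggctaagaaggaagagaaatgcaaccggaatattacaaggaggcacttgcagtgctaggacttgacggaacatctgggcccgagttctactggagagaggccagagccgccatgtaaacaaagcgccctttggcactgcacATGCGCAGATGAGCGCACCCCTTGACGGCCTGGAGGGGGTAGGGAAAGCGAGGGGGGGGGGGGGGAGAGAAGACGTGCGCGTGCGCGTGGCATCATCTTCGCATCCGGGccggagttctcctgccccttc
Wdr76: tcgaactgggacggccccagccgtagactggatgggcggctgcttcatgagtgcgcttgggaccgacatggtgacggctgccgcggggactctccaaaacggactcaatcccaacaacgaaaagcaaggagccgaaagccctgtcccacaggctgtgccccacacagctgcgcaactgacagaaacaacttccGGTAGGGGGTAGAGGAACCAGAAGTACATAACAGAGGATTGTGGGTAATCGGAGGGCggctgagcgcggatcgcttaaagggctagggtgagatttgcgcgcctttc

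These windows held 26, 25, 18 and 21 CpG dinucleotides in the order shown. Among all 32851 RefSeq promoter windows of the same length the median was 7, among the 581 windows of members (442 symbols matched) it was 20, and among the 55 windows of members with an opposite start within 150 bases it was 25. The motif CCGGAAG, searched on both strands, was in 8.86% of all windows, in 11.5% of those of members and in 27.3% of those next to an opposite start. GGGCGG was in 35.7%, 58.3% and 63.6% of them, CCAAT in 37.4%, 39.4% and 38.2%, and TATAAA in 13.6%, 8.95% and 3.64%. None of these 4 motifs contains another. CCGGAAG occurs in the Slc38a6 and Wdr76 windows and not in the other two, and TATAAA occurs in none of the 4. Such matches describe the letters in the window.

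What lies on the other strand was sorted for each member by the nearest gene within 5 kb of its exons. The exons of 56 members (14950 reads) lie at least partly inside the span of an opposite-strand gene, in its introns. A gene ends toward 186 members (36185 reads) and starts toward 113 (26196 reads), and 239 (55970 reads) have no gene that near. Among the 548 protein-coding members, 33.6% lie within 5 kb after the end of an opposite-strand gene, against 18.6% of the 16274 protein-coding features without opposite-strand exons and 23.2% of the 7024 of them with 1 to 59 reads. Having no opposite-strand gene within 5 kb was less frequent, at 39.6% of members against 57.0% of all such features and 46.1% of those with 1 to 59 reads. Spans took 7.66% of the protein-coding members, between 7.17% of all such features and 8.36% of those with 1 to 59 reads. Starts took 19.2%, between 17.2% and 22.4%. Over all biotypes, the members were longer than the features they were drawn from, with a median of 3853.5 exonic bases against 1152. Among protein-coding features the medians were 4119.5 for members, 3248 for all such features and 4370 for those with 1 to 59 reads. A threshold on summed reads can favour long genes, but the protein-coding members had a lower median than those with 1 to 59 reads. The part of length in the position shares was not tested. Where a protein-coding gene ends toward a member, 58.9% of the 151 annotated ends carry AATAAA or ATTAAA in their last 30 bases, close to the 62.0% of 21920 protein-coding genes.

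**Figure D1:**
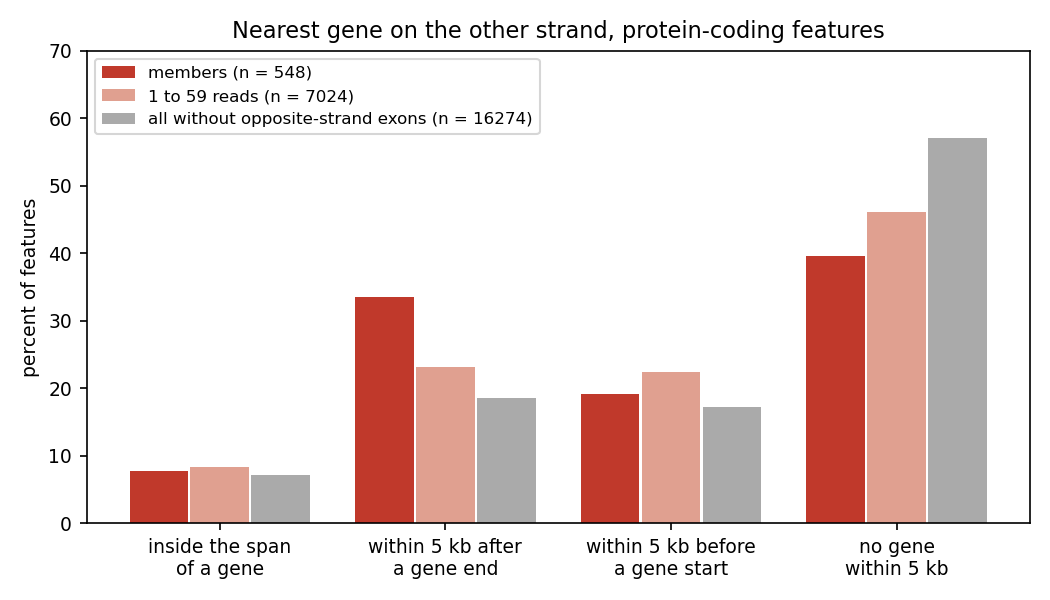
Percent of protein-coding features without opposite-strand exons by what lies nearest on the other strand, for the 548 members, the 7024 features with 1 to 59 reads and all 16274. Bars start at 0, and the class after a gene end rises from 18.6% of all such features to 33.6% of members.

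The annotation decides which features count as free of opposite-strand exons, and a second one gave a partly different answer. A strand was known for 27024 of 49997 RefSeq genes and only these were used, so the shares that follow are lower bounds. By the RefSeq gene spans of the same build, 88 members (14.8%) lie at least partly inside an opposite-strand gene, against 12.8% of all features without opposite-strand exons. Among the 87 members with 300 or more reads it was 23, or 26.4%. Tmem252 is one of these. GENCODE M21 places the end of Pgm5 783 bases from it, while RefSeq runs Pgm5 from 24678261 to 24861842 on chromosome 19, over 3973 of the 5034 exonic bases of Tmem252. The RefSeq span of Trmt5 covers 197 exonic bases of Slc38a6, and that of Lsmem2 covers 760 of Ifrd2. In GENCODE M21, 51 members share exonic bases with a gene on their own strand, so the split of their reads is less certain.

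Sarcomere genes led the members by reads. Tnnt2, which encodes cardiac troponin T, the troponin subunit that binds tropomyosin (chromosome 1, 135836354 to 135852260, plus strand), had the most, with 561, 720 and 2376 reads for Acly_KD 1 to 3, against 821, 2148 and 1834 reads for control 1 to 3. In normalised units these were 861, 1758 and 2969.8 CPM for Acly_KD 1 to 3, against 2989, 2541 and 2637 CPM for control 1 to 3. Acly_KD replicate 1 was lowest, and Acly_KD replicate 3 lay within the control range. The log2 fold change of Acly_KD over control was -0.54 (SE 0.45, 95% interval -1.67 to 0.58, adjusted p = 0.959 in edgeR), which is within the spread of the Acly_KD libraries. The nearest opposite-strand gene, Pkp1, lies 19135 bases away.

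Tpm1, which encodes tropomyosin 1, the coiled coil along the actin filament, stood at 272, 711 and 1481 CPM for Acly_KD 1 to 3, against 1376, 1255 and 955 CPM for control 1 to 3. Tnni3, cardiac troponin I, the inhibitory troponin subunit, stood at 149, 381 and 696 CPM for Acly_KD 1 to 3, against 629.9, 651 and 510.5 CPM for control 1 to 3. In both, Acly_KD replicate 3 was the highest of the 6 libraries and Acly_KD replicate 1 the lowest, so the groups overlapped. Actc1, cardiac alpha-actin, the thin filament itself, showed the same order with 241, 479 and 815 CPM for Acly_KD 1 to 3, against 717, 684 and 561 CPM for control 1 to 3. It lies inside the span of A530058N18Rik on the other strand, and per kb of exon it had the most reads of members with at least 500 exonic bases, 1341, before 4930429F24Rik (1129.6), Tnnt2 (1091), Tnni3 (915) and Tcap (609). Log2 fold changes were -0.53 for Tpm1, -0.54 for Tnni3 and -0.34 for Actc1, with 95% intervals of -2.22 to 1.16, -1.94 to 0.87 and -1.40 to 0.71.

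Among proteins of the Z-disc, where thin filaments are anchored, Actn2 (alpha-actinin 2) stood at 82.9, 186 and 424 CPM for Acly_KD 1 to 3, against 342, 387 and 342 CPM for control 1 to 3, and Tcap (telethonin, which caps titin) at 49.1, 78.1 and 245 CPM for Acly_KD 1 to 3, against 262, 176 and 138 CPM for control 1 to 3. For both, Acly_KD replicates 1 and 2 lay below every control and Acly_KD replicate 3 did not. Actn2 had a log2 fold change of -0.61 (SE 0.57, 95% interval -2.06 to 0.83, adjusted p = 0.959 in edgeR), and the value of Tcap was -0.55 (SE 0.64). Xirp1, an actin-binding protein of the discs that join heart muscle cells, split the controls instead, with 158, 219.8 and 227 CPM for Acly_KD 1 to 3, against 186, 598 and 561 CPM for control 1 to 3. Its log2 fold change was -1.19 (SE 0.41, 95% interval -2.18 to -0.20, adjusted p = 0.687 in edgeR). With single libraries left out it ranged from -1.48 to -0.90, the latter without control replicate 2. Control replicate 1 lay among the Acly_KD libraries. Without that control the change was -1.48 with an adjusted p of 0.00276 in edgeR, the only member that then passed, beside a background of 0.0612% of 3266 features called lower.

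Slc38a6, a member of the SLC38 family of amino acid transporters, had the next most reads after Tnnt2 (chromosome 12, 73286779 to 73354049, plus strand). It collected 595, 456 and 717 reads for Acly_KD 1 to 3, against 415, 1449 and 856 reads for control 1 to 3, or 913, 1114 and 896 CPM for Acly_KD 1 to 3, against 1511, 1714 and 1231 CPM for control 1 to 3. All 3 Acly_KD libraries lay below all 3 controls, and the highest of the 6 libraries was 1.91 times the lowest, where it was 3.47 times in Tnnt2 and 5.45 times in Tpm1. The means were 974 ± 121 CPM in Acly_KD and 1485 ± 243 CPM in control (SD, n = 3 each). The fitted log2 difference was -0.61 (SE 0.16, 95% interval -0.94 to -0.28). Its unadjusted p, 0.00135, was the smallest of the members that were lower in Acly_KD, and the adjusted p in edgeR was 0.457, so it did not pass the test. Leaving out single libraries moved the value between -0.73 and -0.46. With TMM factors computed on the features without opposite-strand exons alone it was -0.17, with an unadjusted p of 0.685 in edgeR. Lower in all 3 Acly_KD libraries than in all 3 controls was true of 28 of 583 members tested, beside 5.56% of all features tested, so that such a pattern was no more frequent among members.

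Several abundant members varied little among all 6 libraries. Tmem252, a transmembrane protein gene (chromosome 19, 24674008 to 24682233, plus strand), stood at 818, 642 and 590.0 CPM for Acly_KD 1 to 3, against 488, 622 and 574 CPM for control 1 to 3, a log2 fold change of 0.28 (95% interval -0.08 to 0.63). The long noncoding gene 4930429F24Rik, back to back with Tmem30a, stood at 588, 444 and 419 CPM for Acly_KD 1 to 3, against 368, 449.6 and 483 CPM for control 1 to 3. Lrrc15, a leucine-rich repeat membrane protein gene with no opposite-strand gene within 5 kb, stood at 489.7, 388 and 495 CPM for Acly_KD 1 to 3, against 528, 356 and 443 CPM for control 1 to 3. In each of these the groups overlapped, and the highest library was 1.48 to 1.68 times the lowest. Pqlc1, which encodes a membrane protein with PQ-loop repeats and lies 1821 bases from the end of Kcng2, had 354, 221 and 323 reads for Acly_KD 1 to 3, against 146, 351 and 330 reads for control 1 to 3. Ifrd2, an interferon-related regulator gene, had 298, 166 and 245 reads for Acly_KD 1 to 3, against 111, 273 and 295 reads for control 1 to 3. Their intervals of log2 fold change were -0.29 to 0.43 and -0.37 to 0.42, both across 0.

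Gm26905, a long noncoding RNA gene in an intron of Galntl6, stood at 396, 418 and 356 CPM for Acly_KD 1 to 3, against 317, 282 and 377 CPM for control 1 to 3, with overlapping groups and a log2 fold change of 0.26 (SE 0.17). Pde4dip, which encodes myomegalin, an anchor protein for cAMP signalling, contains the antisense gene Gm31305 on the other strand, and stood at 114, 215 and 416 CPM for Acly_KD 1 to 3, against 328, 375 and 279 CPM for control 1 to 3. It varied over the libraries as the sarcomere genes did, from the lowest value in Acly_KD replicate 1 to the highest in Acly_KD replicate 3. Rab3gap1, the catalytic subunit of a GTPase-activating complex for Rab3, stood at 215, 305 and 212 CPM for Acly_KD 1 to 3, against 335, 407 and 263 CPM for control 1 to 3, with 1 Acly_KD library inside the control range and a log2 fold change of -0.47 (SE 0.21, 95% interval -0.91 to -0.03, adjusted p = 0.743 in edgeR). The 15 members with the most reads held 26.6% of all member reads, and the first 100 held 58.0%.

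**Figure D2:**
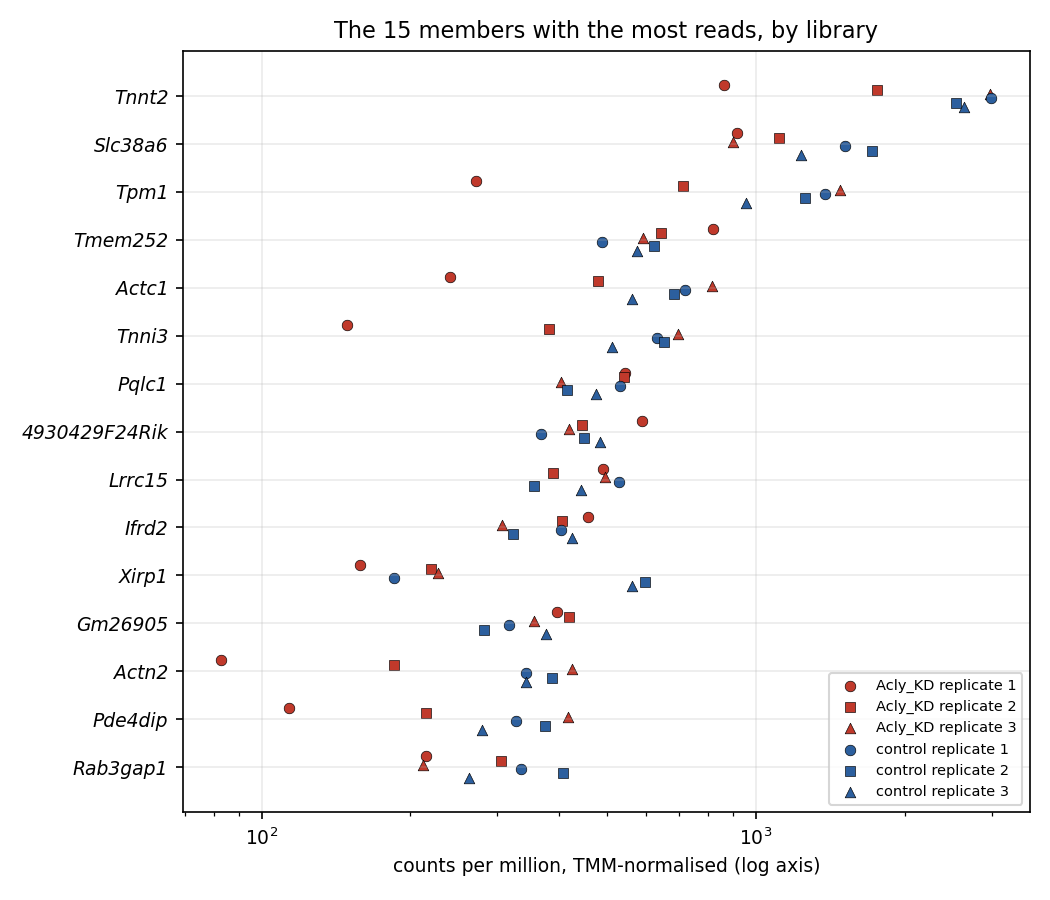
Normalised level (CPM, log axis) of the 15 members with the most reads, 1 point per library, red for Acly_KD and blue for control, with the marker shape giving the replicate. Tnnt2, Tpm1, Actc1, Tnni3, Actn2 and Pde4dip spread widely from Acly_KD replicate 1 to replicate 3, while Tmem252, Pqlc1, 4930429F24Rik, Lrrc15 and Ifrd2 stay close together.

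A single microRNA gene was a member. Mir208b, which in the heart is encoded within the slow myosin heavy chain gene Myh7, collected 498 reads over 77 annotated bases (chromosome 14, 54975700 to 54975776, minus strand), 6468 reads per kb. The libraries were made from poly-A RNA in fragments longer than a mature microRNA, so these are reads across the hairpin locus and not a measure of the mature forms. Its 2 mature forms are printed with the seed, bases 2 to 8, in capitals, since the seed is the part that pairs with targets.
mmu-miR-208b-3p: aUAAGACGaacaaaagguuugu
mmu-miR-208b-5p: aAGCUUUUugcucgcguuaugu

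Mir208b stood at 96.7, 122 and 115 CPM for Acly_KD 1 to 3, against 218, 168 and 131 CPM for control 1 to 3, with all Acly_KD libraries below all controls. The log2 fold change of -0.61 (SE 0.23, 95% interval -1.10 to -0.11, adjusted p = 0.659 in edgeR) did not pass the test. By RefSeq, all 77 bases lie inside the span of Gm31251 on the other strand.

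No member passed the test for a difference between Acly_KD and control. With edgeR's quasi-likelihood test and Benjamini-Hochberg adjustment at 0.05 over the 2952 features tested, 0 members were higher (background 0.0%) and 0 were lower (background 0.0%) of the 583 tested, and DESeq2 also called 0 in each direction. The other 11 members fell under the filter on low counts. At an unadjusted p under 0.05 there were 36 members, beside 6.1% of all features tested, which is about the same share. By DESeq2 there were 21 of 594, and the share of all features under that test is not given here. Groups did not overlap for 15 members higher in Acly_KD, beside 5.83% of all features, and for the 28 lower ones already given. The log2 fold change was below 0 for 423 members and above 0 for 160, with a median of -0.28, where 1607 of all 2952 features lay below 0 and their median was -0.04. Without Acly_KD replicate 1 the members' median was -0.02, with 308 of 594 below 0, beside 1728 of all 3380 features then tested. Without Acly_KD replicate 3 the members' median was -0.66, with 449 of 579 below 0, beside 1512 of all 2998 features.

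The scaling of the libraries set where this median lay. With TMM factors computed on the features without opposite-strand exons alone, the median of all features moved to 0.35 and that of the members to 0.00. Relative to all features the members' median was then -0.35, against -0.24 with the factors used here. Under that scaling the medians of members in a gene span (0.17) and after a gene end (0.04) turned positive, and those before a gene start (-0.08) and with no gene near (-0.06) stayed below 0.

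**Figure D3:**
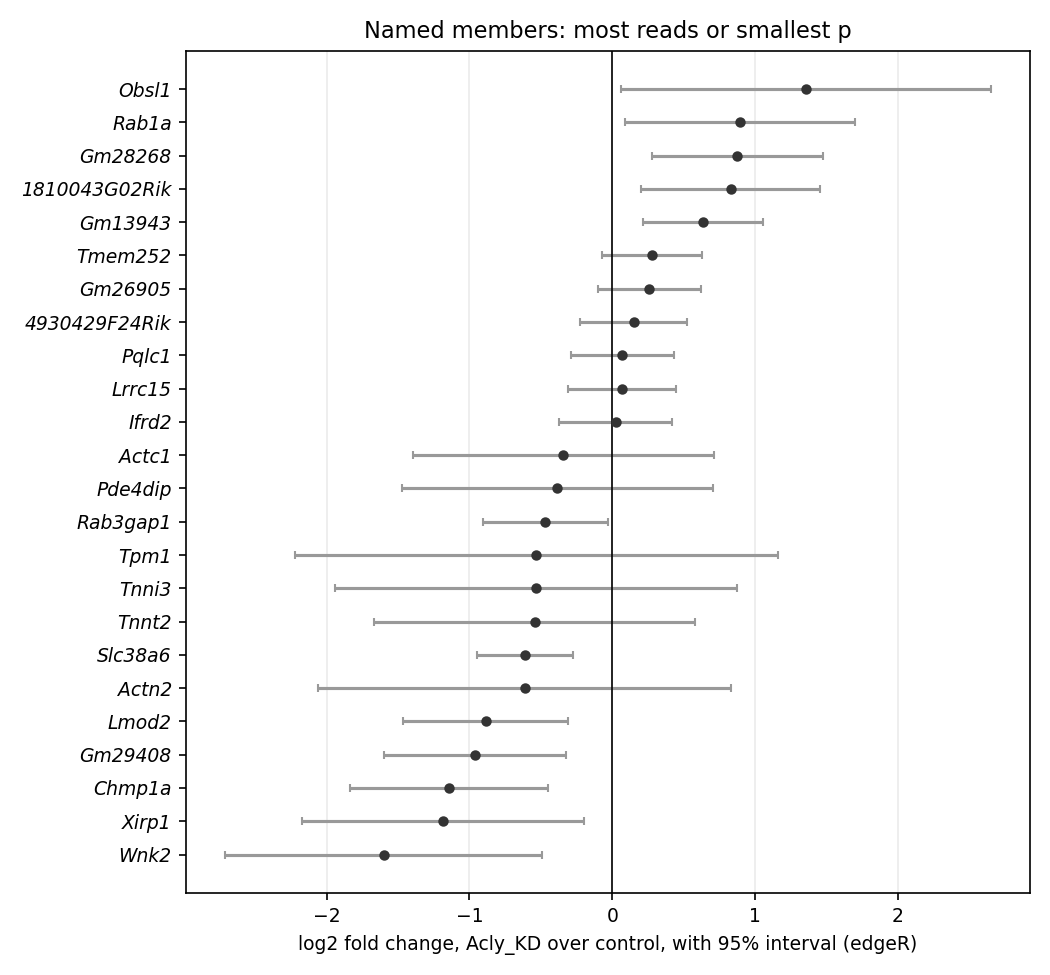
Log2 fold change of Acly_KD over control with its 95% interval (edgeR, 3 libraries per group) for the 15 members with the most reads and the 5 members with the smallest p in each direction, ordered by value. Intervals are wide for the sarcomere genes (Tpm1 from -2.22 to 1.16) and narrow for Slc38a6 (-0.94 to -0.28), and no adjusted p passes 0.05.

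The members with the smallest p in each direction ranged from 68 reads in Obsl1 to 4488 in Slc38a6. Gm13943, a predicted gene of 343 exonic bases, stood at 198, 229.6 and 194 CPM for Acly_KD 1 to 3, against 135, 118 and 147 CPM for control 1 to 3, all Acly_KD libraries above all controls. Its log2 fold change was 0.63 (SE 0.20, adjusted p = 0.549 in edgeR). Gm28268 (0.88), 1810043G02Rik (0.83) and Rab1a (0.89), a GTPase of transport from the endoplasmic reticulum to the Golgi, likewise had groups that did not overlap. Rab1a lies 181 bases from the end of Cep68 and 1810043G02Rik lies 42 bases from the end of Pfkl. Obsl1, which encodes obscurin-like 1, a cytoskeletal linker, had 13, 5 and 32 reads for Acly_KD 1 to 3, against 1, 6 and 11 reads for control 1 to 3. Its groups overlapped, with a log2 fold change of 1.36 (95% interval 0.06 to 2.65).

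In the other direction, after Slc38a6, Chmp1a, a component of the ESCRT-III membrane scission machinery, had 36, 27 and 24 reads for Acly_KD 1 to 3, against 21, 109 and 78 reads for control 1 to 3. Its log2 fold change was -1.14 (SE 0.33, adjusted p = 0.480 in edgeR). Lmod2, leiomodin 2, which sets thin filament length, stood at 93.7, 173 and 226 CPM for Acly_KD 1 to 3, against 328, 324 and 266 CPM for control 1 to 3, a log2 fold change of -0.89 (SE 0.27). Gm29408, a noncoding feature of 216 bases, and Wnk2, a kinase gene, had values of -0.96 and -1.60. In all 4 every Acly_KD library lay below every control, although Wnk2 rested on 83 reads in all.

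The medians of the lists for contraction and energy supply were all below 0, and no list had a member that passed the test. Of 257 genes on the 6 pathway lists, 100 were members and 98 were tested. Of 36 sarcomere genes 19 were members, with 16 below 0 and a median log2 fold change of -0.34. For calcium handling and ion channels it was 12 of 34, 10 of them below 0, with a median of -0.28. The most abundant of these were Hrc, a calcium-binding protein of the sarcoplasmic reticulum, at 95.2, 264 and 370.0 CPM against 444, 285 and 243 CPM (Acly_KD 1 to 3 against control 1 to 3, as in the pairs that follow), and Ryr2, the channel that releases calcium from it, at 119.8, 178 and 304 CPM against 233, 263 and 217 CPM. Hrc ends 148 bases from the end of Ppfia3 on the other strand.

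The nuclear genes of the respiratory chain had 34 members of 87 listed, 33 tested, 30 of them below 0, and a median of -0.43. Slc25a4, the mitochondrial ADP/ATP exchanger of heart, stood at 52.2, 137 and 285 CPM against 295, 291 and 189.8 CPM, and Atp5b, the catalytic beta subunit of ATP synthase, at 41.5, 149 and 226 CPM against 255, 206 and 154 CPM. In both, Acly_KD replicate 3 was 5.46 times Acly_KD replicate 1 and lay among the controls. Fatty acid oxidation and uptake had 15 members of 36, with 14 below 0 and a median of -0.45. Pdk4, the kinase that shuts pyruvate out of oxidation, stood at 121, 129 and 309 CPM against 178, 321 and 263 CPM, and Lpl, the lipase that frees fatty acids from circulating triglyceride, at 95.2, 147 and 294 CPM against 193, 263 and 151 CPM.

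Glycolysis, pyruvate and the TCA cycle had 19 members of 47, 18 tested, 15 of them below 0, and a median of -0.55. Idh2, the mitochondrial isocitrate dehydrogenase that makes NADPH, stood at 36.8, 78.1 and 205 CPM against 215, 173 and 94.9 CPM, and Ogdh, a subunit of the 2-oxoglutarate dehydrogenase complex, at 39.9, 70.8 and 104 CPM against 138, 114 and 51.8 CPM. Of 17 genes of citrate and cytosolic acetyl-CoA only Acacb, the acetyl-CoA carboxylase at the mitochondrial surface, was a member. It had 4, 9 and 22 reads for Acly_KD 1 to 3, against 14, 30 and 11 reads for control 1 to 3, and a log2 fold change of -0.79 (95% interval -2.01 to 0.42). With the factors computed on features without opposite-strand exons, the medians of the 5 larger lists stayed below 0, from -0.34 to -0.07, while that of all features was 0.35. Without Acly_KD replicate 1 the calcium list had a median of 0.06 and the others -0.13 to -0.02. Without Acly_KD replicate 3 the medians were -1.02 for the sarcomere, -0.65 for calcium handling, -1.11 for the respiratory chain, -1.10 for fatty acid oxidation and -1.12 for glycolysis and the TCA cycle. With Acly_KD replicate 3 as the single knockdown library, the 5 medians were 0.15 to 0.35.

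Library by library, the lists differed more within Acly_KD than between the groups. Set against the mean of the controls, on the scale of log2 of CPM plus 2, the sarcomere members had medians of -1.60, -0.59 and 0.31 for Acly_KD 1 to 3, against 0.10, 0.11 and -0.23 for control 1 to 3. Respiratory chain members had -1.57, -0.81 and 0.30, against 0.24, 0.12 and -0.49. Acly_KD replicates 1 and 2 were thus below and Acly_KD replicate 3 above every control for both lists. All members tested had -0.91, -0.40 and 0.16, against 0.02, 0.08 and -0.12. The 45 tested members that are not protein-coding had -0.25, 0.00 and -0.07 for Acly_KD 1 to 3, and the 2188 nuclear features with opposite-strand exons had 0.04, 0.02 and -0.04. Summed cardiomyocyte markers, 4 of 8 of which are themselves members, were likewise lowest in Acly_KD replicate 1 and highest in Acly_KD replicate 3, and their part in the result was not tested.

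**Figure D4:**
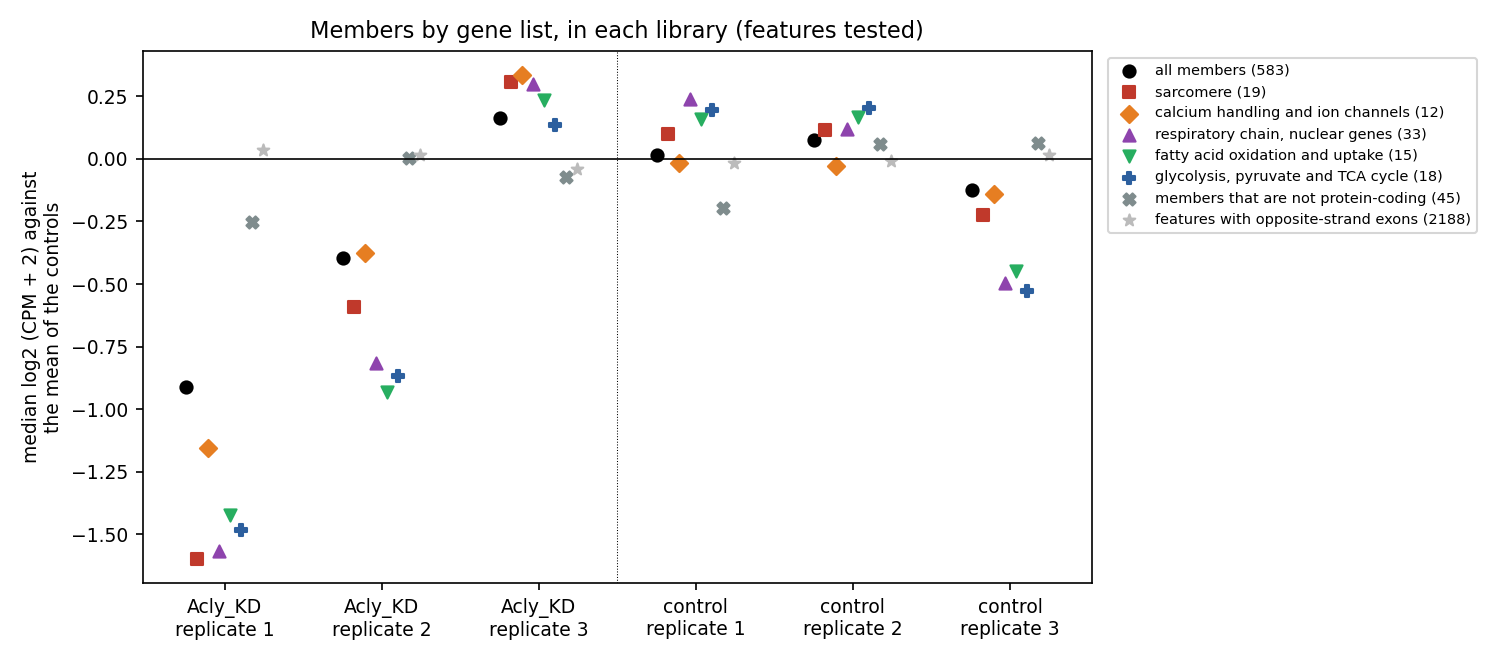
Median log2 of CPM plus 2 against the mean of the controls, by library, for all tested members, 5 pathway lists, the members that are not protein-coding, and features with opposite-strand exons. The list medians lie between -1.60 and -1.15 in Acly_KD replicate 1 and between 0.14 and 0.34 in Acly_KD replicate 3, while features with opposite-strand exons stay near 0.

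Acly_KD replicate 3 exceeded Acly_KD replicate 1 by more than 2-fold in 308 of 583 members (52.8%), beside 20.5% of all features tested and 10.2% of features with opposite-strand exons. This comparison of 2 libraries was chosen after their values were seen and carries no test. Among protein-coding members it was 56.5%, and among the other biotypes 4 of 45. It held for 14 of 19 sarcomere members, 12 of 12 in calcium handling, 28 of 33 in the respiratory chain, 13 of 15 in fatty acid oxidation and 16 of 18 in glycolysis and the TCA cycle. Members with no opposite-strand gene within 5 kb (59.4%) and before a gene start (60%) had it more frequently than those after a gene end (45.9%) or in a gene span (33.9%).

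**Figure D5:**
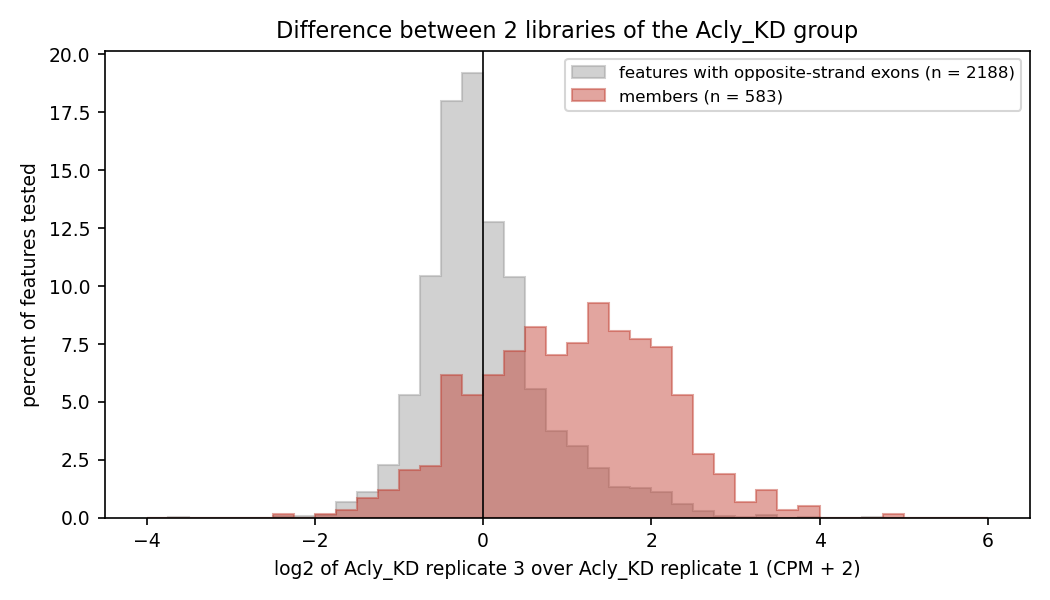
Distribution of log2 of Acly_KD replicate 3 over Acly_KD replicate 1 (CPM plus 2) for 583 members in red and 2188 features with opposite-strand exons in grey, as percent of features. Grey centres near 0, with a median of -0.10, and red is broad and shifted, with a median of 1.10.

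The 87 members with 300 or more reads fell on both sides of this difference. In 41 of them Acly_KD replicate 3 was over 2-fold above Acly_KD replicate 1, and in 35 the log2 ratio was at most 0.5. Of the 41, 27 are on a pathway list, all are protein-coding and 8 lie in a RefSeq opposite-strand span. Of the 35, 2 are on a pathway list, 10 are not protein-coding and 12 lie in such a span. Their median log2 fold changes between groups were -0.38 and 0.05, values that share these 2 libraries with the split. Gm26880, a noncoding gene in the span of Zfp981, was the steadiest at 115, 115 and 116 CPM for Acly_KD 1 to 3, against 117, 117 and 105 CPM for control 1 to 3. Stx3, a membrane fusion protein gene 158 bases from the end of Mrpl16, stood at 250.2, 212 and 246 CPM for Acly_KD 1 to 3, against 218, 189 and 213 CPM for control 1 to 3.

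Leaving out Acly_KD replicate 3 changed the outcome of the test. Of 579 members then tested, 28 were lower (background 1.53% of 2998 features) and 1 was higher, Gm28268 (background 0.767%), by edgeR's quasi-likelihood test with the same adjustment. Of the 28, 16 are on the pathway lists. Actn2 had a log2 fold change of -1.42 (adjusted p = 0.00780 in edgeR) and Tnnt2 of -1.02 (adjusted p = 0.0300 in edgeR). Lmod2, at -1.18, and Tcap, at -1.53, both had an adjusted p of 0.0116 in edgeR. Jph2, which ties the sarcoplasmic reticulum to the cell membrane (log2 fold change -1.25), Eno3, the muscle enolase (-2.40), and Ppargc1a, a coactivator of mitochondrial genes (-1.98), were also among the 28. For 22 of the 28 Acly_KD replicate 3 lay above the lowest control, and for 19 above their mean. The 28 were picked with that library left out and none passed with it in, so its place in them carries no test. With Acly_KD replicate 3 as the only knockdown library, 6 members were called lower (background 0.649% of 4006 features) and 2 higher (background 0.25%), a fit in which the single library is assumed to vary as the controls do.

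The shares of member reads by position had no difference between groups that passed the exact test. Members after a gene end took 31.7%, 28.9% and 26.1% of member reads for Acly_KD 1 to 3, against 25.6%, 26.4% and 26.8% for control 1 to 3. The means were 28.9% ± 2.79 and 26.3% ± 0.629 (SD, n = 3 each; p = 0.3, two-sided exact permutation test, 0.533 adjusted over the 4 classes). Members with no gene near ran the other way, at 35.8%, 39.6% and 44.3% against 43.7%, 42.3% and 42.5% (p = 0.4 by the same exact test, adjusted 0.533). Gene spans took 11.7% ± 0.584 against 10.9% ± 0.579 (n = 3 each; exact p = 0.2), and starts 19.5% ± 0.969 against 20.01% ± 0.807 (n = 3 each; exact p = 0.6). No p below 0.1 is possible with these numbers.

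At the threshold itself, Chd4, a chromatin remodeller, and Fbxo31, a ubiquitin ligase subunit, are 2 of the 15 features with exactly 60 reads. Krit1, a vascular adaptor protein gene, and Wnt2b, a Wnt ligand gene, are 2 of the 6 features that stopped at 59. The median member had 111.5 reads in all. With 30 or with 120 reads as the threshold, edgeR again called 0 features in each direction.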

How the data were processed

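The deposited values are read counts per gene feature, whole numbers made by the authors with no normalization, for 3 Acly_KD and 3 control libraries. Per the submitters' processing notes the build was mm10 and the tools, listed with no version, included TopHat2, HTSeq, SAMtools, FastQC and DESeq2. How HTSeq was set for strand is not given in the sources here. The 5 rows that name no gene took 97.4% to 97.7% of the entries of a library and were left out of library sizes and tests.

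Features were matched by identifier to GENCODE M21 (mm10), and exons were compared with exons, spans and ends of genes on the other strand. RefSeq spans and promoter windows (GRCm38.p6) were a second annotation, in which 27024 of 49997 genes had a strand. Counts were tested on the whole table with edgeR 4.0.16 in R 4.3.3 (TMM, a filterByExpr minimum count of 10, robust quasi-likelihood fit, Benjamini-Hochberg adjustment over all features tested, threshold 0.05). CPM values use TMM factors within the features tested. Standard errors were derived from the fold change and the F statistic, and 95% intervals from the t distribution. Reads counted in features per library were 271463 to 814765, and a low total limits the precision of every member. Between libraries of a group the chi-square per degree of freedom was 4.37 to 13.4, so none repeated another. The test was also run on counts simulated with known changes, and the outcome of that run is not given here. Alternatives were DESeq2 1.42.0, other scalings, filters and thresholds, a replicate block, and libraries left out.

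The members, lists and alternatives were chosen with earlier results of these data known. Named were Acly, Slc38a6, the 15 members with the most reads, the 5 with the most reads per kb, the 3 with the most reads in each position class, the 5 with the smallest p in each direction, the 2 with the most reads in each list, and 2 features on either side of 60 reads. Mir208b, Vps26b, Wdr76, Gm26880, Stx3, Jph2, Eno3 and Ppargc1a were picked outside that rule once their values had been seen, as was the comparison of Acly_KD replicates 3 and 1.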

Additional observations from a re-analysis of the deposited data

How the results depend on the processing

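The counts of 0 members called higher and 0 called lower held under DESeq2, DESeq2 size factors in edgeR, library totals, TMM on features without opposite-strand exons, no filter on low counts, a minimum count of 30, mitochondrial features left out, read thresholds of 30 and 120, members within 1 kb of an opposite-strand exon left out, and, added after the data were seen, members in a RefSeq opposite-strand span left out. With single libraries left out, the calls ranged from 0 to 1 higher and from 0 to 28 lower. The high values came without Acly_KD replicate 3, where 28 members were lower and 1 higher, and without control replicate 1 the number lower was 1. With Acly_KD replicates 1 and 2 left out, also added later, 2 were higher and 6 lower, and the median of members was 0.18. The cause of these shifts was not tested.

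The counts gave no sign that replicate numbers pair the libraries, although correlations over so few libraries cannot exclude a pairing. Deviations of same-numbered libraries correlated at -0.07, -0.02 and -0.18 over features, and each number matched best with another. A fit with the replicate block called 0 members higher and 0 lower, with 32 of 583 at an unadjusted p under 0.05 in edgeR. The share of all features in that fit is not given here, so the 32 have no background beside them.

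The difference in the share of nuclear reads ranged from -1.70 to -0.04 percentage points with single libraries left out. The share before a gene start, -0.507 percentage points lower in Acly_KD, turned to 0.0667 with 2 kb and 0.0188 with 10 kb in place of 5 kb. Over 24 named members and 15 settings, 331 values kept their direction and side of the threshold, 9 passed it and 16 turned. With Acly_KD replicates 1 and 2 left out, log2 fold changes turned for Tnnt2 (0.13), Tpm1 (0.31), Actc1 (0.32), Tnni3 (0.22), Actn2 (0.24), Pde4dip (0.34), Pqlc1 (-0.22), 4930429F24Rik (-0.0697) and Ifrd2 (-0.32). Ifrd2 also turned with library totals (-0.0359) and a minimum count of 30 (-0.00039). With single libraries left out, Ifrd2 ranged from -0.11 to 0.24, Actc1 from -0.832 to 0.00376, 4930429F24Rik from -0.0169 to 0.306 and Lrrc15 from -0.0364 to 0.25. Most members have under 300 reads over 6 libraries, which limits the differences that could be seen.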
